A study of Mus musculus with 12 samples.

Results

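The 9 complement genes described here are C1qa, C1qb, C1qc, C1ra, C1s1, C4b, C3, Serping1 and Cd59a. They were taken by Entrez ID from the 27179 genes counted in each of 12 mouse retina libraries, and all 9 passed the filter on low counts. The libraries came from whole retina of control mice and of mice labelled Glia-ABCA1KO (KO below), in which ABCA1, a transporter that exports cholesterol and phospholipid from cells, was deleted in glia. There were 4 groups of 3 libraries, namely control and KO retina at 3 months and at 12 months of age. The protocol calls the mice Astro-KO, and the Cre line or promoter behind the deletion is not given in the sources used here. No treatment is named in the labels. Nothing in them tells whether libraries of a group are separate animals, so the p-values speak only of how these libraries vary, and that variation may be technical. Library totals ran from 29027099 to 30438026 counts.

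Complement is a cascade of plasma and tissue proteins that tags surfaces for removal. In the classical pathway the C1q recognition subunit, built from the products of C1qa, C1qb and C1qc, carries the proteases C1r and C1s, which cleave C4 and C2 to form the enzyme that splits C3. Fragments of C4 and C3 attach to the target, where phagocyte receptors recognise them, and inhibitors act at several steps. In brain and retina the C1q genes are transcribed mainly by microglia, whereas C4b and C3 can be made by glia, and complement tagging is known for its part in the removal of synapses during development.

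Sequences bear on the C4b and C1q results and are shown first. C4b (chr17:34728139-34743902, minus strand, GRCm38) has a near-copy, C4a (chr17:34809092-34823460, minus strand), which RefSeq lists as a transcribed pseudogene. Aligned over 5367 bases, their transcripts are 96.1% identical, and 16.5% of the 100-base windows of the C4b transcript also occur in C4a. The 60-base stretch of exon 21 that differs most between them is printed below from chr17:34735430-34735489 for C4b and chr17:34816086-34816145 for C4a, both in the sense of transcription, with the 13 differing bases in capitals.

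C4b: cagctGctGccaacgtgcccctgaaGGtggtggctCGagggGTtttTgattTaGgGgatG

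C4a: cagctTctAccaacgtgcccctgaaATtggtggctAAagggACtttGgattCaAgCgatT

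C1qa (chr4:136895916-136898844), C1qc (chr4:136889801-136892936) and C1qb (chr4:136880126-136886200) lie side by side on the minus strand of chromosome 4. RefSeq promoter windows, 250 bases before to 50 after the start site (GRCm38.p6), were given for 6 of the 9 genes, among them C1qb and C1qc, the C1q genes whose levels ran most closely together over the libraries. Both windows are printed 5′ to 3′ on the gene's strand, C1qb from chr4:136886151-136886450 and C1qc from chr4:136892865-136893164. Capitals mark the one match found in them, to the PU.1-like motif GAGGAAGT on the opposite strand, at bases -195 to -188 from the C1qc start. PU.1 is a transcription factor of microglia and other myeloid cells.

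C1qb: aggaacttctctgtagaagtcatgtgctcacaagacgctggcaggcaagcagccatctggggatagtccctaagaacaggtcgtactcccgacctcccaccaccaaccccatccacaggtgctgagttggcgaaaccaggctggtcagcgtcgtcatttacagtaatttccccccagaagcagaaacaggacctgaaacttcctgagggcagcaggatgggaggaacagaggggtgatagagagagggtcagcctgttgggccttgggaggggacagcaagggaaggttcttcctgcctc

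C1qc: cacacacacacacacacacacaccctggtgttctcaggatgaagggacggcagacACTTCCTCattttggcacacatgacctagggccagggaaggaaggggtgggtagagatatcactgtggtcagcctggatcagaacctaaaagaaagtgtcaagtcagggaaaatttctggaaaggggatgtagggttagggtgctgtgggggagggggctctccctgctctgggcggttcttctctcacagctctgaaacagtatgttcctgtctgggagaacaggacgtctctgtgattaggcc

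Of 32851 RefSeq promoter windows of this length, 3.20% hold GAGGAAGT on either strand. The other motifs searched on both strands were the STAT motif TTCNNNGAA (in 8.30% of windows), the interferon-stimulated response element GAAANNGAA (8.56%), the NF-kB motif GGGACTTTC (0.353%) and the C/EBP motif TTGCGCAA (0.183%). Among the members with a window, Cd59a held GAAANNGAA at bases -187 to -179 and C1ra held TTCNNNGAA at bases 32 to 40. A match is a description of these letters and not of a bound site.

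Levels were first set side by side per kilobase of exon, as CPM (counts divided by the library total after scaling by edgeR's TMM factors) per kb. Cd59a, which encodes a membrane inhibitor of the terminal pore, stood highest, with a mean over the 12 libraries of 30.3 CPM per kb. C1qa followed at 8.39, C1qc at 4.90, Serping1 at 4.04, C4b at 2.75, C1qb at 2.19 and C3 at 1.15 CPM per kb. The proteases were lowest, C1s1 at 0.513 and C1ra at 0.216 CPM per kb. Only Cd59a and C1qa, as neighbours in this order, had ranges over the libraries that did not overlap. C1qc was above Serping1 in 8 of 12 libraries and Serping1 above C4b in 10 of 12, so the middle of the order is not settled by these libraries.

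**Figure D1:**
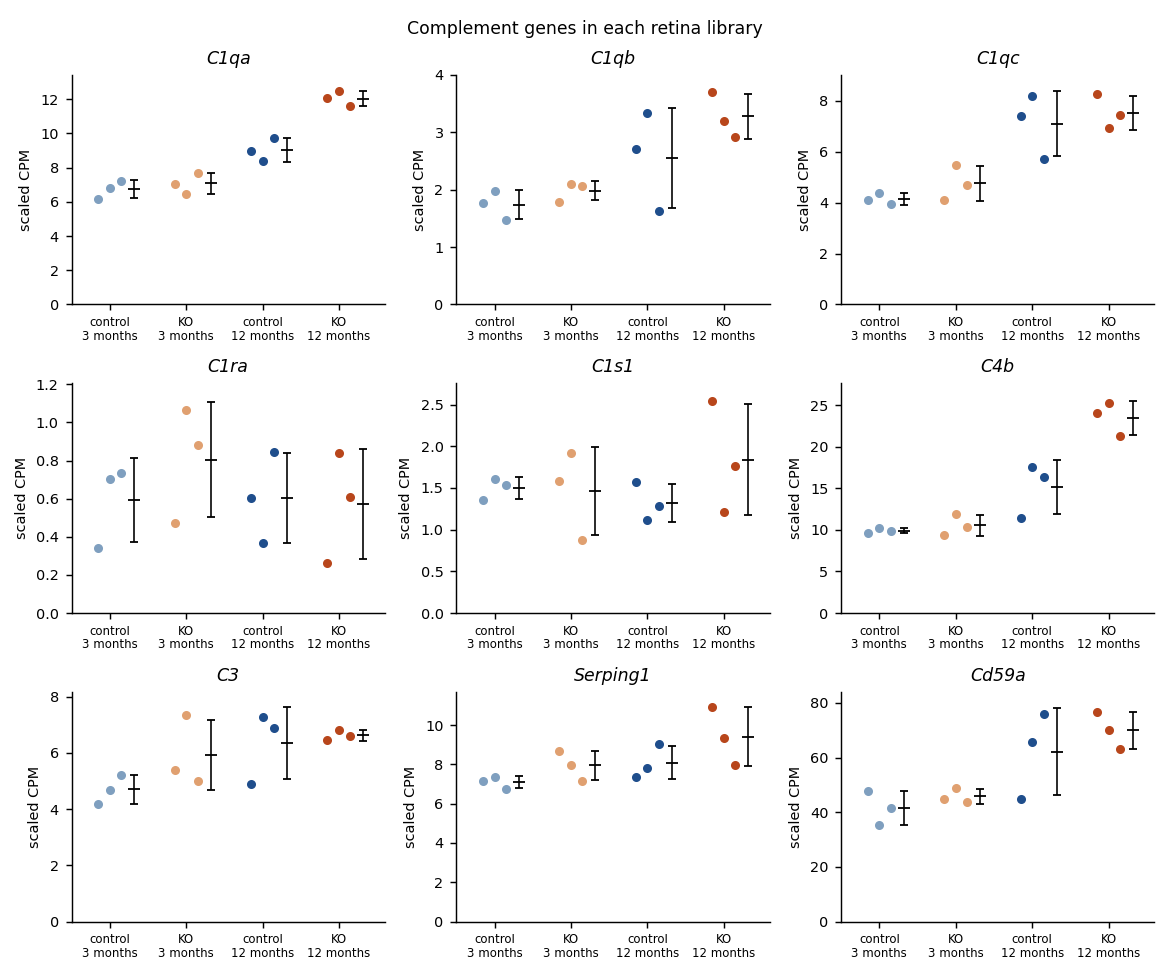
Scaled CPM (vertical axis, from 0) of the 9 complement genes in each library, with points for the 3 libraries of each group and a bar for the group mean and SD to their right. C1qa and C4b are highest in all 3 libraries of 12-month KO retina, at 11.6 to 12.5 and 21.3 to 25.2 CPM, whereas C1ra and C1s1 show no separation by group.

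The C1q genes were higher at 12 than at 3 months. C1qa, the A chain, measured 6.15, 6.84 and 7.20 CPM in 3-month control retina and 7.05, 6.48 and 7.71 CPM in 3-month KO retina. At 12 months it measured 8.95, 8.41 and 9.75 CPM in control and 12.1, 12.5 and 11.6 CPM in KO retina. Every 12-month library lay above every 3-month library, and the 12-month KO libraries lay above the 12-month controls. Averaged over the genotypes, the log2 fold change of C1qa with age was 0.60 ± 0.09 (SE; edgeR quasi-likelihood test with Benjamini-Hochberg adjustment over the 16475 genes tested, adjusted p = 0.000221).

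C1qc, the C chain, measured 4.11, 4.39 and 3.95 CPM in 3-month control and 4.12, 5.49 and 4.70 CPM in 3-month KO retina. At 12 months it measured 7.41, 8.21 and 5.70 CPM in control and 8.26, 6.93 and 7.44 CPM in KO retina. As for C1qa, the ages did not overlap, but the genotypes did at both ages. Its log2 fold change with age was 0.72 ± 0.12 (SE; adjusted p = 0.000489). C1qb, the B chain, had lower counts (44 to 112 per library) and a wider spread. It measured 1.77, 1.98 and 1.47 CPM in 3-month control, 1.79, 2.09 and 2.06 CPM in 3-month KO, 2.70, 3.33 and 1.62 CPM in 12-month control and 3.70, 3.19 and 2.92 CPM in 12-month KO retina. The third 12-month control library, with its 1.62 CPM, lay within the 3-month range, while all other 12-month libraries lay above it. The rise of C1qb with age, a log2 fold change of 0.64 ± 0.18 (SE; adjusted p = 0.0365), ran from 0.52 to 0.76 with each library left out. It was no longer called with any one of 9 libraries left out (all but 3-month control library 2, 12-month control library 3 and 12-month KO library 3), with adjusted p up to 0.118.

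C4b, which encodes the mouse C4 protein cleaved by C1s, had the largest change with age of the 9 in KO retina and averaged over the genotypes, while in control retina C1qc changed more. It measured 9.65, 10.2 and 9.91 CPM in 3-month control and 9.38, 11.9 and 10.4 CPM in 3-month KO retina. At 12 months it measured 11.5, 17.6 and 16.3 CPM in control and 24.1, 25.2 and 21.3 CPM in KO retina. The groups formed steps, with 3-month libraries of both genotypes at one level, 12-month controls above their 3-month controls, and 12-month KO libraries above all others. The first 12-month control library, at 11.5 CPM, was the lowest of its group and lay below the highest 3-month KO library. Its log2 fold change with age was 0.88 ± 0.10 (SE; adjusted p = 9.37e-06).

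C3, the component on which all pathways converge, measured 4.18, 4.69 and 5.22 CPM in 3-month control and 5.40, 7.34 and 5.01 CPM in 3-month KO retina. It measured 4.91, 7.26 and 6.89 CPM in 12-month control and 6.44, 6.83 and 6.59 CPM in 12-month KO retina. The ages overlapped in both genotypes, and the log2 fold change with age, 0.30 ± 0.13 (SE; adjusted p = 0.190), did not pass the test.

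The proteases of C1 gave too few counts for a firm statement. C1ra, which encodes C1r, had 8 to 31 counts per library and 0.264 to 1.06 CPM, with both extremes in KO retina. C1s1, which encodes C1s, had 26 to 77 counts per library and 0.879 to 2.54 CPM. Neither passed the test in any comparison, and their log2 fold changes with age were -0.23 ± 0.34 and 0.07 ± 0.23 (SE). C1ra shares 34.5% of its 100-base windows with C1rb (at most 4 counts in a library) and C1s1 shares 7.90% with C1s2 (at most 11 counts). C1s1 also overlaps 576 bases of Gm16567 on the opposite strand, and the strand setting of the counting is not given in the sources used here. Reads of that pair may not be told apart.

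The inhibitors differed from each other. Cd59a measured 47.7, 35.2 and 41.7 CPM in 3-month control and 44.8, 48.9 and 43.8 CPM in 3-month KO retina. At 12 months it measured 45.0, 65.6 and 76.0 CPM in control and 76.6, 70.0 and 63.2 CPM in KO retina. Of the 12-month libraries only the first control lay within the 3-month range, and the log2 fold change with age was 0.60 ± 0.11 (SE; adjusted p = 0.00593). Its relative Cd59b reached at most 28 counts in a library.

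Serping1, which encodes the C1 inhibitor that removes C1r and C1s from the C1 complex, showed no change with age that passed the test. It measured 7.14, 7.37 and 6.76 CPM in 3-month control, 8.67, 7.99 and 7.17 CPM in 3-month KO, 7.38, 7.84 and 9.01 CPM in 12-month control and 10.9, 9.35 and 7.95 CPM in 12-month KO retina. The 3 control libraries of each age lay just apart and those of the KO overlapped. The log2 fold change with age was 0.22 ± 0.10 (SE; adjusted p = 0.255).

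With age averaged over the genotypes, 5 of the 9 members thus rose (C1qa, C1qb, C1qc, C4b and Cd59a) and none fell. Of all genes tested, 6.38% were called in this comparison and 3.62% were called higher. The median log2 fold change of the members was 0.60, against a median close to 0 over all genes. The members and the gene lists used below were chosen with earlier results of these data known. Shares of members or listed genes set against all genes, here and below, are therefore descriptions and not tests of a set. C1qa and C1qc were the 2 members with no overlap between the ages over all 12 libraries, which held in the same direction for 2.15% of the genes tested.

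Within control retina, C1qc and C4b were called higher at 12 months, 2 of 9 members against 2.11% of all genes called and 1.4% called higher. Their log2 fold changes were 0.78 ± 0.17 (adjusted p = 0.0128) for C1qc and 0.61 ± 0.14 (SE; adjusted p = 0.0252) for C4b. C1qa (0.43 ± 0.13, adjusted p = 0.102), Cd59a (0.58 ± 0.16, adjusted p = 0.0928), C1qb (0.55 ± 0.26, adjusted p = 0.373), C3 (0.43 ± 0.18, adjusted p = 0.292) and Serping1 (0.19 ± 0.14, adjusted p = 0.687) were not called. Both calls were sensitive to leaving out 1 library. With each library left out, the log2 fold changes ran from 0.66 to 0.91 for C1qc and from 0.49 to 0.77 for C4b. C1qc lost its call without 3-month control library 3 or 12-month control library 1 or 2, and C4b lost it without 3-month control library 1 or 3 or 12-month control library 2 or 3, with adjusted p up to 0.101 and 0.177. The groups did not overlap for C1qa, C1qc, C4b and Serping1, 4 of 9 members against 9.21% of genes higher without overlap.

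Within KO retina, C4b, C1qa and C1qc were called higher at 12 months, 3 of 9 members against 2.37% of all genes called and 1.54% called higher. C4b had a log2 fold change of 1.16 ± 0.14 (SE; adjusted p = 7.25e-05), a fold change of 2.23, and C1qa one of 0.77 ± 0.13 (SE; adjusted p = 0.00134). These 2 calls held under each of the 23 alternative settings in which they could be computed at the same threshold. C1qc, at 0.66 ± 0.16 (SE; adjusted p = 0.0336), lost its call without any one of the 6 KO libraries, with adjusted p up to 0.210. C1qb (0.72 ± 0.25, adjusted p = 0.166), Cd59a (0.61 ± 0.16, adjusted p = 0.0719), C3 (0.16 ± 0.18, adjusted p = 0.785) and Serping1 (0.24 ± 0.14, adjusted p = 0.505) were not called. With DESeq2 and with limma-voom Cd59a was called in both genotypes. The ages did not overlap for the C1q genes, C4b and Cd59a, 5 of 9 members against 10.7% of genes higher without overlap.

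**Figure D2:**
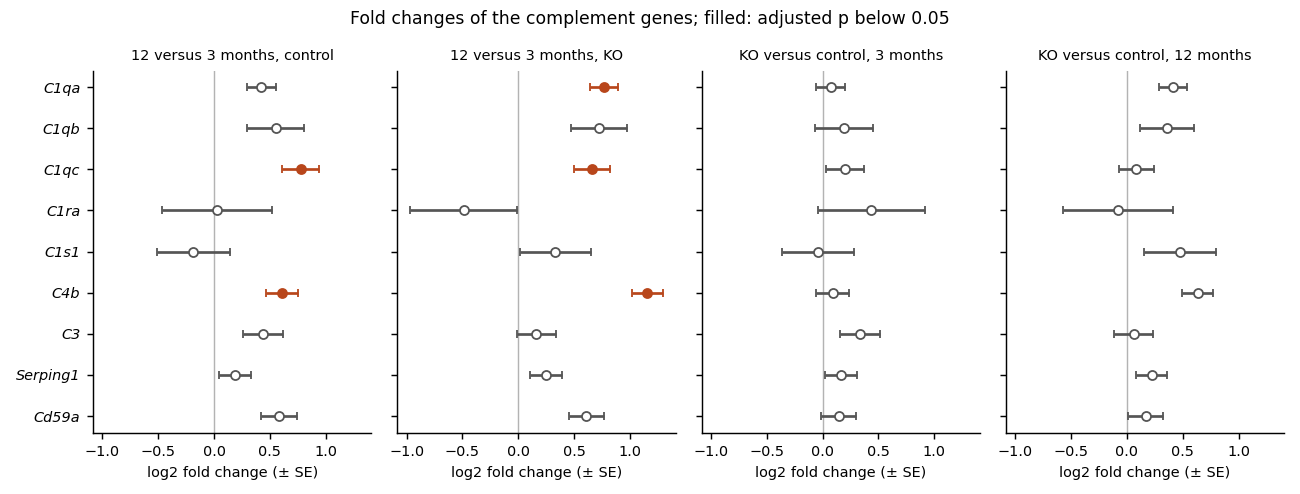
Log2 fold change (horizontal axis) with its SE for the 9 members in 4 comparisons, from the edgeR model, filled where the adjusted p is below 0.05. The filled points are C1qc and C4b with age in control and C1qa, C1qc and C4b with age in KO retina, and no point is filled for KO against control.

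The KO was compared with control at each age. At 12 months none of the 9 members passed edgeR's test, against 0.212% of all genes called. An unadjusted p below 0.05 was found for 2 members, C4b and C1qa, and for 1433 of the 16475 genes tested. DESeq2 and limma-voom each called 1 member, C4b, where they called 127 and 150 of all genes. C4b was 23.5 ± 2.04 CPM in KO and 15.1 ± 3.22 CPM in control retina (SD, n = 3), a log2 fold change of 0.64 ± 0.14 (SE; adjusted p = 0.0723). Over the alternative settings its adjusted p ran from 0.00515 to 0.334, the highest being without the first 12-month control library, where the log2 fold change was 0.47, so the edgeR call depends on the processing. In the authors' deposited table for 12 months the C4b log2 fold change was 0.41 with an SE of 0.098 and an adjusted p of 0.00876. The deposited log2 values may be on another scale than those given here. For the low-count C1ra the deposited SE was 0.062, against 0.49 by edgeR. A lower deposited value is therefore not read as a smaller effect.

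C1qa was higher in all 3 KO libraries than in any control library at 12 months, with a log2 fold change of 0.41 ± 0.12 (SE; adjusted p = 0.278). In the authors' deposited table, with the same limit on its scale, it was 0.27, with an adjusted p of 0.246. C1qa and C4b were the 2 members without overlap, against 8.32% of genes higher without overlap. For the other C1q genes the log2 fold changes were 0.36 ± 0.24 (C1qb) and 0.09 ± 0.16 (C1qc), with SEs that overlap the value of C1qa only for C1qb. The differences among the 3 chains were not tested. C3 (0.06 ± 0.18), Serping1 (0.22 ± 0.14) and Cd59a (0.17 ± 0.16) overlapped between the genotypes.

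At 3 months none of the members was called by edgeR, DESeq2 or limma-voom, against 0.225% of all genes called by edgeR. None had an unadjusted p below 0.05 by edgeR's test, against 1235 of the 16475 genes tested. For the C1q genes the values were 0.07 ± 0.13 (C1qa), 0.19 ± 0.26 (C1qb) and 0.20 ± 0.17 (C1qc), on the log2 scale with SE. For C4b it was 0.09 ± 0.14, for C3 0.33 ± 0.18, for Serping1 0.16 ± 0.14 and for Cd59a 0.14 ± 0.16. The difference between the KO effects at the 2 ages was tested directly. For C4b it was 0.55 ± 0.20 (unadjusted p = 0.0133 by edgeR's test, adjusted p = 0.999) and for C1qa 0.34 ± 0.18. None of the 9 passed by any of the 3 tools, and edgeR called 0.127% of all genes. By edgeR's unadjusted p below 0.05 there was 1 member (C4b), beside 713 of the 16475 genes tested. A KO effect on C4b that differs between the ages was therefore not established after adjustment. Averaged over the ages, the KO effect was 0.36 ± 0.10 for C4b (adjusted p = 0.164) and 0.24 ± 0.09 for C1qa (adjusted p = 0.295). None of the 9 was called by any of the 3 tools, and edgeR called 0.316% of all genes. By edgeR's unadjusted p below 0.05 there were 2 members, beside 2125 of the 16475 genes tested.

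Measurements of the libraries stand beside the KO results. Abca1 itself was not lower in the KO libraries, with 27.4 to 42.5 CPM in 12-month KO and 27.7 to 32.7 CPM in 12-month control retina, so in whole retina its level does not check the labels. Xist, the RNA of the inactive X chromosome, was at 52.3 to 85.5 CPM in the 12-month KO libraries and at most 0.609 CPM in the other 9, although Ddx3y, Uty, Kdm5d and Eif2s3y of the Y chromosome were expressed in all 12. More genes had a count in the 12-month KO libraries (18887 to 19144) than in the others (18541 to 18725). Xist and the gene number go with the whole 12-month KO group, so they cannot be told apart from the KO in the C4b and C1qa values at 12 months. The same holds for age within KO retina, where both also differ between 3 and 12 months, and it bears on the C4b, C1qa and C1qc calls there and on the values averaged over the genotypes.

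The second 3-month control library and the first 12-month KO library stood apart from their groups over all genes, with squared differences from their replicates of 41.9 and 43.1 and of 21.6 and 24.9 times the counting variance. The second 3-month control library also held 5846 CPM of lens genes, against 54.5 to 263.9 CPM in the others, and the 3-month controls held 104.1 to 116.0 CPM of skeletal muscle genes, against 24.5 to 32.9 CPM elsewhere. The part of this muscle RNA in the age values of control retina was not tested. The log2 fold changes with age within KO retina compare only KO libraries. Their SEs and adjusted p come from the 1 model over all 12 libraries, the 3-month controls included. With both libraries left out, C1qa (0.60), C1qb (0.64), C1qc (0.70) and C4b (0.88) remained called with age averaged over the genotypes, and Cd59a (0.51, adjusted p = 0.0819) did not. In control retina C1qc (0.82) and C4b (0.63) remained called, as did C1qa (0.76), C1qc (0.59) and C4b (1.14) in KO retina. C4b in 12-month KO against control became called, at 0.62 (adjusted p = 0.0123), against 0.64 in the main fit. The number of all genes called in that comparison went from 35 to 421 at the same time. With age it went from 1051 to 2110 averaged over the genotypes, from 347 to 1040 in control and from 390 to 1069 in KO retina.

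The members were then set against the C1q genes within each library, as the log2 ratio of a gene to the mean log2 CPM of C1qa, C1qb and C1qc. The ratio of C4b was 1.43 ± 0.06 and 1.36 ± 0.11 in 3-month control and KO retina, 1.46 ± 0.42 in 12-month control and 1.80 ± 0.12 in 12-month KO retina (SD, n = 3). C4b thus kept its distance from the C1q genes at 3 months in both genotypes, and in 12-month KO retina it stood above all 6 of those libraries, while 12-month controls spread from 1.01 to 1.84. The ratio of C3 was 0.35 ± 0.19 and 0.52 ± 0.27 at 3 months and 0.22 ± 0.40 and -0.01 ± 0.12 at 12 months, in control and KO retina. Against C1q, C3 was lower in all 12-month KO libraries than in any 3-month library, and it overlapped the 12-month controls. With age in KO retina C1qa, C1qb and C1qc changed by 0.77, 0.72 and 0.66 (log2), and C3 by 0.16. A gene that did not change would thus also have a lower ratio, so this restates the C1q values. How many of all genes separate in this way was not counted.

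For Serping1 the ratio was 0.95 ± 0.04 and 0.95 ± 0.23 at 3 months and 0.57 ± 0.36 and 0.48 ± 0.14 at 12 months, in control and KO retina. As for C3, all 12-month KO libraries lay below all 3-month libraries and overlapped the 12-month controls. The log2 fold change of Serping1 itself with age in KO retina was 0.24 ± 0.14 (SE). Its lower ratio therefore also restates the C1q values. The ratio of Cd59a was between 3.37 and 3.48 in all 4 group means. Its SD was 0.54 in 12-month control retina, with libraries from 2.98 to 4.06, and 0.06 to 0.29 in the other groups. The group means of this inhibitor thus kept their distance from C1q, but the single 12-month control libraries did not. These ratios are descriptions without a test, and all share the same C1q values.

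**Figure D3:**
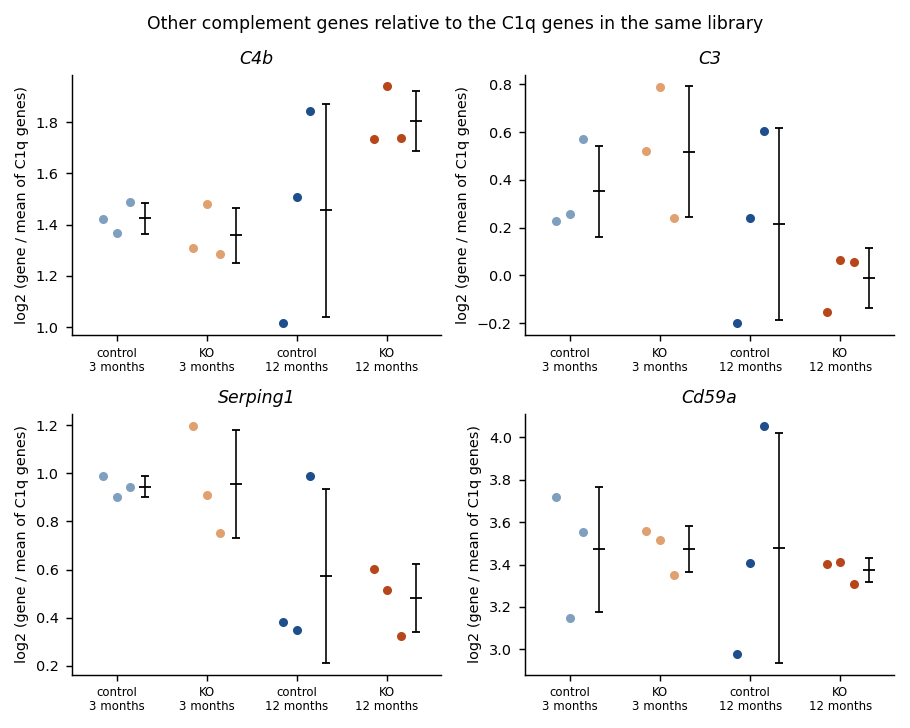
Log2 ratio of C4b, C3, Serping1 and Cd59a to the mean log2 CPM of the 3 C1q genes in the same library (vertical axis, not starting at 0), with points for libraries and bars for group mean and SD. C4b is at 1.73 to 1.94 in 12-month KO retina, Serping1 at 0.33 to 0.60, and the 12-month controls spread widely in all 4 genes.

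Since reads could be shared between C4b and C4a, both were followed. C4a was between 4.04 and 5.36 CPM in all 12 libraries, with no difference between groups that passed the test. Its log2 fold change with age was -0.07 ± 0.12 and with the KO at 12 months 0.08 ± 0.17 (SE; adjusted p = 0.842 and 0.914). The ratio of C4b to C4a counts was 2.17 ± 0.24 in 3-month control, 2.37 ± 0.29 in 3-month KO, 3.59 ± 0.65 in 12-month control and 5.39 ± 1.13 in 12-month KO retina (SD, n = 3). The counts of the near-copy therefore did not move with those of C4b. How the authors' counting treated reads with several alignments is not given in the sources used here, and the level of each gene is uncertain to that extent.

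**Figure D4:**
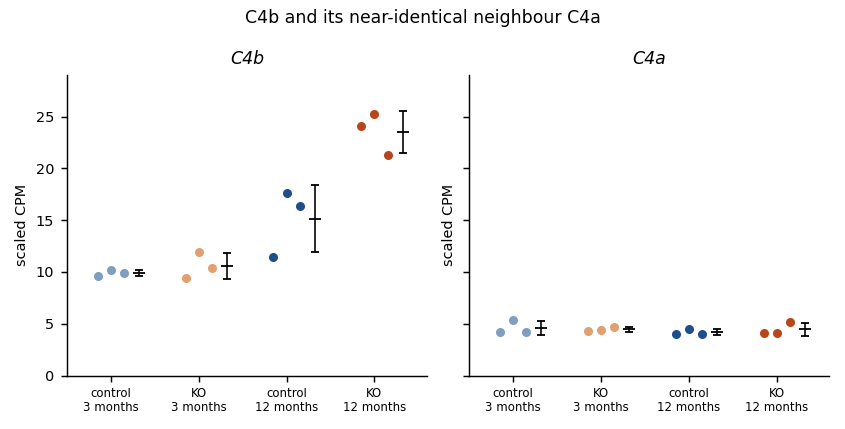
Scaled CPM (vertical axis, from 0) of C4b and of its near-copy C4a in each library, with group mean and SD. C4b goes from 9.38 CPM at the lowest to 25.2 CPM at the highest, and C4a stays between 4.04 and 5.36 CPM.

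The other genes of the cascade were taken from a list of 56 complement genes, of which 34 passed the filter and 25 of those are not members. With age averaged over the genotypes, 2 of the 25 rose and none fell, a share near that of all genes (6.38% called, 3.62% higher), so the count says nothing particular about the list. C2, which is cleaved by C1s and joins C4 in the enzyme that splits C3, was at 1.64 to 2.34 CPM in control and 1.44 to 2.54 CPM in KO retina at 3 months and at 2.94 to 3.44 and 3.14 to 4.10 CPM at 12 months. No 12-month library of C2 was below a 3-month one, and the log2 fold change with age was 0.81 ± 0.16 (SE; adjusted p = 0.00387). Within KO retina it was 0.93 ± 0.23 (adjusted p = 0.0343), the one call among the 25 in the other comparisons, and it was lost without KO library 1 or 2 of 3 months or 2 or 3 of 12 months.

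Cfi, the protease that inactivates C3 and C4 fragments, rose by 0.70 ± 0.21 on the log2 scale (SE; adjusted p = 0.0476), on 22 to 64 counts per library, and was no longer called under 12 settings. Without the members, the median log2 fold change of the list with age was 0.05. In the alternative pathway, properdin (Cfp) had a mean of 37.6 CPM at 3 and 32.6 CPM at 12 months (-0.20 ± 0.07, adjusted p = 0.0983) and factor B (Cfb) one of 7.36 and 9.03 CPM (0.29 ± 0.10, adjusted p = 0.0976), and neither passed.

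The most abundant complement genes of the retina were inhibitors outside the 9 members. Vitronectin (Vtn) had a mean level of 607 CPM per kb, clusterin (Clu) of 315 and Sez6l2 of 68.6 CPM per kb, and none of the 3 was called with age. Of the 7 genes of the terminal pathway, which forms the membrane pore, only C8g passed the filter, at 0.511 CPM per kb, and the others had at most 10 counts in a library. The receptor genes Itgb2 and Itgam, which encode the chains of complement receptor 3, were at 0.366 and 0.285 CPM per kb. With so few counts, a change in the terminal components or the receptors, as in C1ra and C1s1, would have been hard to detect at this depth.

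Because microglia transcribe C1q, 18 marker genes of these cells were measured beside the members. In bulk retina a change in the number of cells of a type and a change in RNA per cell cannot be told apart. Of the 17 that passed the filter, 5 rose with age averaged over the genotypes and none fell, against 3.62% of all genes called higher. The 5 were the receptors Csf1r (0.32), Cx3cr1 (0.42) and Trem2 (0.75), the protease gene Ctss (0.46) and Laptm5 (0.59), on the log2 scale. Of 23 alternative settings, Cx3cr1 lost its call under 10, Csf1r under 8 and Ctss under 1. Trem2 and Laptm5 remained called under all 23. The median of the list was 0.26. The summed level was 59.4 to 68.4 CPM in 3-month control, 64.2 to 66.0 in 3-month KO, 75.0 to 80.0 in 12-month control and 74.1 to 82.7 CPM in 12-month KO retina, with no marker at 0. The ages did not overlap and the genotypes did. For KO against control at 12 months 0 of the 17 were called and their median was 0.12, where C1qa stood at 0.41 and C1qc at 0.09. Of 6 tested genes of activated microglia, 0 were called there. Their median was 0.23, with 4 of 6 above 0.

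Other cells that could bring complement RNA were measured in the same way. The 7 markers of blood leukocytes, of which 2 passed the filter and none was called, summed to 0.951 to 1.34 CPM in 3-month control, 1.29 to 1.95 in 3-month KO, 0.568 to 1.51 in 12-month control and 1.62 to 1.83 CPM in 12-month KO retina. At 12 months the leukocyte sums of the KO thus lay above the controls, as C4b and C1qa did, at a far lower level, and their part in those values was not tested. Border macrophage markers summed to 10.1 to 14.8 CPM over the 12 libraries, with overlap between the ages in each genotype. Fibroblast markers were at 17.1 to 25.0 CPM. At 12 months the 8 Mueller glia markers summed to 4037 to 4185 CPM in control and 3903 to 3968 CPM in KO retina. Their median log2 fold change between the genotypes was -0.08, with 1 of 8 above 0. The 5 astrocyte markers summed to 31.8 to 33.3 and 33.9 to 36.2 CPM, with a median of 0.02. None of these glial markers was called in that comparison, and their part in the complement values was not tested. The 8 rod markers, at 47011 to 56103 CPM, showed the tissue to be retina. Whether the number or state of microglia has a part in the C1q values was not tested.

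Interferon response genes and genes of reactive glia were measured as lists beside C4b and C3. Of 17 interferon response genes tested, 8 rose with age averaged over the genotypes, against 3.62% of all genes called higher. The summed level of the list was 345.4 to 372.7 CPM in 3-month control, 352.2 to 358.7 in 3-month KO, 549.5 to 633.9 in 12-month control and 472.0 to 523.2 CPM in 12-month KO retina. The 12-month KO sums were below the controls here, and most of that gap was 1 gene, Irf7, with a mean of 220.6 CPM in control and 145.8 CPM in KO retina. The median log2 fold change of the list between the genotypes at 12 months was -0.05, with 7 of 17 genes above 0. Irf7, which encodes an interferon-induced transcription factor, was the 1 gene of this list called between the genotypes at 12 months, against 0.212% of all genes. It fell by 0.60 ± 0.10 (adjusted p = 0.0105). Of 16 reactive glia genes, Edn2 (1.72 ± 0.18) and Serpina3n (0.90 ± 0.18) were called higher in 12-month KO retina, against 0.127% of all genes. The median of the list was 0.34. Its summed level was 309.4 to 356.8 CPM in 3-month control, 298.7 to 329.3 in 3-month KO, 292.6 to 324.4 in 12-month control and 349.1 to 387.9 CPM in 12-month KO retina. The part of either list in the complement values was not tested.

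**Figure D5:**
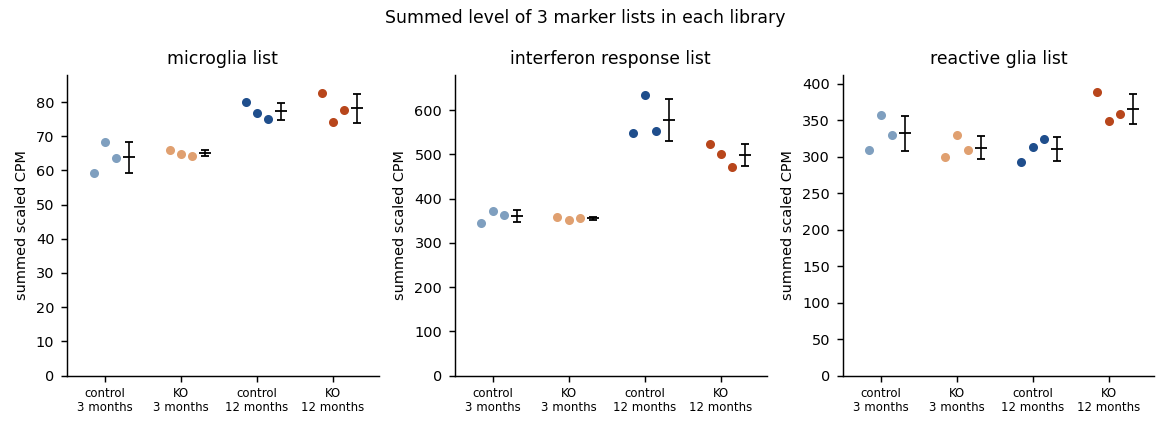
Summed scaled CPM (vertical axis, from 0) of the microglia, interferon response and reactive glia lists in each library, with group mean and SD. The microglia sums separate by age (at most 68.4 against at least 74.1 CPM), the interferon sums are highest in 12-month control retina, and the reactive glia sums of 12-month control and KO retina do not overlap.

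The genes most like each member were ranked by Pearson's r of log2 CPM over the 12 libraries, which share the 4 groups and so share every age and genotype difference. The nearest gene to C1qb was C1qc (r = 0.90), whereas C1qa correlated with C1qb at 0.71 and with C1qc at 0.78. C4b was the 9th nearest gene to C1qa (r = 0.92), nearer than the other 2 chains of C1q. The nearest genes to C1qa were H1f2, Med30, Gng11, Ptprn and A2m, and those to C4b included H1f2, A2m, Tsr2 and Lonp2, with r of 0.92 to 0.96 over the genes named. For C1qc they were Pcdhb9, F11r, Mlf1, Ptprn and Hdc, and for C1qb, after C1qc, Vwa5a, Myo1g, Alg14 and Egr4. The genes nearest to C3 included Crybg3, Exoc3 and Vopp1, and Serping1 was nearest to Acot9, Prdx3, Rnf7, Adam32 and Rnase4. C4b and C1qa thus had H1f2 and A2m, a gene of the reactive glia list, in common among their 5 nearest genes, and C1qa and C1qc had Ptprn.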

How the data were processed

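For 12 retina libraries, 3 for each age and genotype, the deposited values are raw counts by Entrez ID. Libraries were stranded and poly(A)-selected, from RNA of an integrity number over 8, per the labels' protocols. HISAT2 2.1.0, featureCounts 1.6.4, DESeq2 1.22.1 and GRCm38 are named per the submitters' processing notes. The authors also deposited a table for 12 months without column names, read here as mean normalized count (signal), log2 fold change, standard error, score, raw p-value and adjusted p-value. That score as deposited by the authors is the log2 value over its error. Low counts were more often even (60.7% to 70.2% of counts from 1 to 20) than higher ones (48.6% to 50.7% from 101 to 400), so reads of a pair may be counted separately and low counts then stand for fewer fragments.

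Genes were named from RefSeq (25275 of 27179). Counts were filtered with filterByExpr and scaled by TMM, and 1 quasi-likelihood model over the 4 groups was fitted with edgeR 4.0.16 (limma 3.58.1, R 4.3.3), with Benjamini-Hochberg adjustment over 16475 genes at 0.05 and a common biological coefficient of variation of 0.110. Exon lengths came from GENCODE M21. A prior count of 2 was used for log2 CPM. The steps were tested on simulated data. The members, gene lists and motifs were chosen with earlier results of these data known. Named genes were all members, their near-copies, listed complement genes that were called or highest in level in their role, called cell markers, and the 5 genes most like a member, of which some are not reported here. DESeq2 1.42.0, limma-voom, other scalings and filters, halved counts, a replicate block and each library left out were the alternatives. Leaving out 2 libraries together was chosen after seeing the data.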

Additional observations from a re-analysis of the deposited data

How the results depend on the processing

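In 12-month KO against control retina the number of members called was 0, and 1 (C4b) with DESeq2, limma-voom, no filter, a threshold of 0.1, the replicate block, or without the 2 libraries that stood apart, and 0 to 1 with each library left out. The number of all genes called was 35 in the main fit and 127, 150, 64, 66, 40 and 421 in the named settings, in that order. With age in control it was 2, then 3 (Cd59a added) with DESeq2, limma-voom or a threshold of 0.1, 0 with only the libraries compared, and 0 to 2 with each library left out. With age in KO it was 3 (2 to 4), averaged over the genotypes 5 (4 to 5), and for the other comparisons 0 under all settings run. Replicate numbers did not pair the libraries: 1 of 18 same-numbered pairs correlated above 0.1 (-0.082 to 0.138), and 4 of 12 libraries were closest to their own number. The replicate block gave C4b at 12 months an adjusted p of 0.0371.

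Directions that turned were all of uncalled genes, and the cause was not tested. With age averaged over the genotypes, C1ra became 0.013 with limma-voom and 0.0094 without both libraries, and was as low as -0.42 with one library left out. C1s1 became -0.035 with limma-voom, -0.054 without both, and ran from -0.080 to 0.20 with each library left out (-0.059 without the third 3-month KO library). C4a became 0.026 without both and was as low as -0.13 with one left out. With each library left out, 12-month KO against control ran from -0.050 to 0.20 for C1qc, -0.096 to 0.17 for C3, -0.018 to 0.34 for Cd59a and -0.040 to 0.15 for C4a, and 3-month KO against control from -0.0047 to 0.17 for C4b. Using only the libraries compared gives nothing new for the comparisons that use all 12. Depth limits C1ra and C1s1 most.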
